A study of Mus musculus with 4 samples.

Results

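The 7 genes described here serve antigen presentation by major histocompatibility complex (MHC) class II molecules, and all 7 were found by gene name among the 48432 gene rows of the deposited table. They are H2-Aa, H2-Ab1, H2-Eb1, H2-DMa, H2-DMb1, Cd74 and Ciita, given by a rule that names genes and uses no measured value, although earlier results of these data were known when it was set. They were compared between cardiomyocytes of control mice and of mice that overexpress Rbfox2, whose product binds RNA and regulates alternative splicing. The control genotype is labelled MHC, which names a mouse line and not these genes, and that group is called the control throughout. The other genotype, labelled RbFox2, is called Rbfox2 OE. Each group had 2 libraries. All animals were on the C57BL x FVB background and ate a doxycycline diet for 3 days before cardiomyocytes were isolated by Langendorff perfusion, and polyadenylated RNA was sequenced. The labels give neither the age of the mice nor the promoter that drives the transgene, and do not say whether each library came from 1 heart.

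Class II molecules display peptides from ingested material to CD4+ T cells. An alpha and a beta chain pair in the endoplasmic reticulum around the invariant chain, CD74, which blocks the peptide groove until endosomal proteases degrade it. The H2-DM heterodimer then exchanges the last invariant chain fragment for other peptides. Dendritic cells, macrophages and B cells express the genes constitutively or on activation, and interferon gamma induces them in many other cells through the transactivator CIITA. CIITA does not bind DNA itself but joins the RFX, CREB and NF-Y factors that occupy the conserved X and Y boxes of class II promoters.

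In GENCODE M21 on GRCm38, 5 of the 7 genes lie in the class II region of chromosome 17. H2-DMa spans 34119541 to 34139101, H2-DMb1 34153072 to 34160230, H2-Ab1 34257689 to 34269419 and H2-Eb1 34305867 to 34316674, all on the plus strand. H2-Aa spans 34282744 to 34287823 on the minus strand. Cd74 and Ciita lie on other chromosomes. All 7 are annotated as protein-coding. The FPKM of each is a gene-level value under the authors' annotation, which can cover less than these spans. The deposited rows start inside them for H2-DMa, at 34135182, and for H2-Ab1, at 34263209.

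The promoter windows of H2-Aa, H2-Eb1 and H2-DMb1 are shown because these genes were all higher in Rbfox2 OE, as described further on, and their RefSeq start sites lie within 119 bases of the start of the gene in the table. Each window runs from 250 bases before the RefSeq start site to 50 bases after it (RefSeq, GRCm38.p6). Capitals mark exact matches, on either strand, to ATTGG, the core of the Y box (an inverted CCAAT), and to the X box core, whose match is the longer run of capitals upstream. The H2-Aa window is chr17:34287774-34288073 on the minus strand, the H2-Eb1 window chr17:34305617-34305916 and the H2-DMb1 window chr17:34152941-34153240, both on the plus strand.
H2-Aa: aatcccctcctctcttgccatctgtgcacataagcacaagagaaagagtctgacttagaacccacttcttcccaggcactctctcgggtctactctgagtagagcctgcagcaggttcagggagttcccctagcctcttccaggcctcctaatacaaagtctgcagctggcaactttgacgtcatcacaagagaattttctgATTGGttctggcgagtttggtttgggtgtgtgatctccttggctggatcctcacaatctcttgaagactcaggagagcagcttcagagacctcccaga
H2-Eb1: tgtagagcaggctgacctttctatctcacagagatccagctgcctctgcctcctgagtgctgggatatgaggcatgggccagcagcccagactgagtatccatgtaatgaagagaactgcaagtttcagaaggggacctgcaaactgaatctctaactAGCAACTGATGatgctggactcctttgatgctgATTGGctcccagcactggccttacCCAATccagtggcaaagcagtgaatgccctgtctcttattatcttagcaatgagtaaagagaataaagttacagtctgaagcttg
H2-DMb1: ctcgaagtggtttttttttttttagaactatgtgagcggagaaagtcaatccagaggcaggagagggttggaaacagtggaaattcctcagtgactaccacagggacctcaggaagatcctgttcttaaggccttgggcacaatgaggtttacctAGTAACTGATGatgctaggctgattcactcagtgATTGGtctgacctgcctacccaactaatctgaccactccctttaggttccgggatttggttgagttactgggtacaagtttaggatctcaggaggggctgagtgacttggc

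The Y box letters began 48 bases before the start site in H2-Aa, 59 bases before it in H2-Eb1 and 61 bases before it in H2-DMb1. H2-Eb1 held a second match on the opposite strand, which began 35 bases before the start. The X box letters ended 22 bases before the Y box in H2-Eb1 and 23 bases before it in H2-DMb1, and had no exact match in the H2-Aa window. H2-Eb2, another class II beta chain gene, held the same pair with 22 bases between. Of the 8 class II genes matched to a window by symbol, all 8 held the Y box letters on the same strand and 3 held the X box letters. The table held 2 windows for H2-DMa, at start sites other than that of the deposited row, and 1 of them held the Y box letters. Among all 32851 RefSeq promoter windows of this length, 37.4% held ATTGG on either strand and 0.298% held the X box core. TTCNNNGAA, a STAT factor site, was in 8.30% of all windows and, among the 8 class II genes, in H2-DMb2 alone. H2-Ab1, Cd74 and Ciita were not matched. These are matches of letters and do not show which factors bind.

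**Figure D1:**
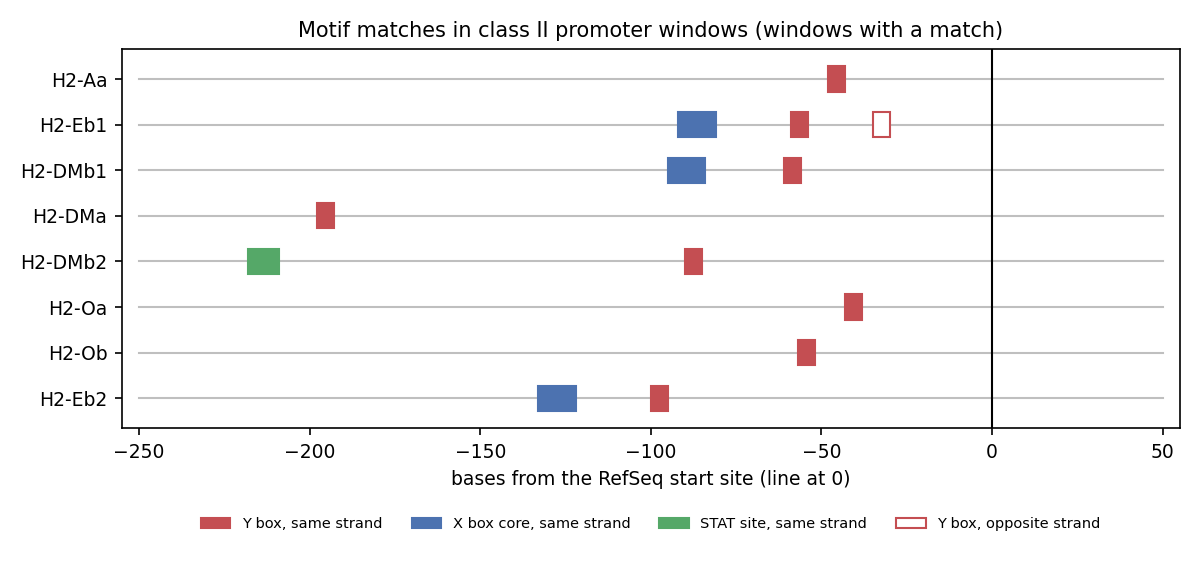
Positions of motif matches in the promoter windows of 8 class II genes, in bases from the RefSeq start site; each grey line is a window, filled boxes are matches on the strand of the gene and the open box is a match on the opposite strand. The Y box letters sit at 48, 59 and 61 bases before the start in H2-Aa, H2-Eb1 and H2-DMb1, with the X box letters upstream of them in the latter pair and in H2-Eb2.

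The authors' table gives 1 pooled value per gene and group in FPKM, fragments counted per kilobase of transcript and per unit of sequencing depth, with bounds below and above it whose level is not stated. It holds no value per library, so there is no replicate spread and no test between the groups, and the depth of the libraries is unknown. Rbfox2, which checks the labels, stood at 14.7 FPKM (bounds 10.4 to 19.0) in control cells and at 293 FPKM (bounds 214 to 373) in Rbfox2 OE. Of 10 cardiomyocyte markers, 9 stood between 122 and 24688 FPKM in control cells and between 22.4 and 18007 FPKM in Rbfox2 OE. Myh6 was listed at 0 in both groups with the status HIDATA, which Cuffdiff gives to loci with too many fragments to estimate. All 7 class II genes had the status OK.

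The genes of the classical chains were about 3-fold higher in Rbfox2 OE. H2-Aa, the alpha chain of the H2-A molecule, stood at 16.3 FPKM (bounds 10.9 to 21.6) in control cells and 45.3 FPKM (bounds 31.4 to 59.2) in Rbfox2 OE, a ratio of 2.78. H2-Ab1, the beta chain that pairs with it, stood at 14.9 FPKM (bounds 10.1 to 19.8) and 49.3 FPKM (bounds 34.2 to 64.5), a ratio of 3.30. H2-Eb1, the beta chain of the H2-E molecule, stood at 6.61 FPKM (bounds 4.20 to 9.03) and 17.9 FPKM (bounds 12.1 to 23.7), a ratio of 2.70. For each of these genes Rbfox2 OE was the high group and the bounds of the groups did not overlap. With a pseudocount of 1 FPKM added to both groups, the log2 ratios of Rbfox2 OE over control were 1.42, 1.66 and 1.31 for H2-Aa, H2-Ab1 and H2-Eb1. Taken from the closest and the most distant bounds, the log2 ratios were 0.52 and 2.33 for H2-Aa, 0.76 and 2.56 for H2-Ab1, and 0.38 and 2.25 for H2-Eb1. In bulk RNA, more cells that carry these transcripts and more transcript per cell cannot be told apart.

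Cd74, the invariant chain, was the most abundant of the 7 genes in both groups. The gene spans 60803848 to 60812652 on the plus strand of chromosome 18. It stood at 38.1 FPKM (bounds 26.4 to 49.8) in control cells and 128 FPKM (bounds 90.9 to 165) in Rbfox2 OE, a ratio of 3.37. Its log2 ratio with the pseudocount, 1.73, was the largest among the 7 genes, and the bounds gave 0.86 and 2.60. The bounds of the groups did not overlap, with Rbfox2 OE high.

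The peptide editor was expressed at a lower level than the chains and was also higher in Rbfox2 OE. H2-DMa, its alpha chain, stood at 1.77 FPKM (bounds 0.538 to 3.01) in control cells and 7.15 FPKM (bounds 4.03 to 10.3) in Rbfox2 OE, a ratio of 4.03 and a log2 ratio of 1.55. H2-DMb1, a beta chain of the same heterodimer, stood at 0.554 FPKM (bounds 0.211 to 0.896) and 2.67 FPKM (bounds 1.55 to 3.79), a ratio of 4.82 and a log2 ratio of 1.24. The bounds of the groups were separate for both. Their plain ratios were the 2 largest of the 7 genes, but they rest on low control values, and with the pseudocount both fall below Cd74 and H2-Ab1. The near-identical neighbour H2-DMb2, a second beta chain gene, stood at 0.226 FPKM (bounds 0.00132 to 0.450) and 0.995 FPKM (bounds 0.455 to 1.54), so fragments may have been divided between H2-DMb1 and H2-DMb2.

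Ciita, the transactivator (chromosome 16, 10480059 to 10528418, plus strand), was low in both groups. It stood at 0.127 FPKM (bounds 0 to 0.395) in control cells and 0.235 FPKM (bounds 0 to 0.596) in Rbfox2 OE, with overlapping bounds and a log2 ratio of 0.13. A difference in Ciita was not detectable in these values. The table places Ciita in 1 locus with Dexi, a gene on the opposite strand that stood at 24.9 FPKM in control cells and 23.3 FPKM in Rbfox2 OE. The libraries were made with a stranded kit, but whether the counting used strand is not given in the sources used here, so the low Ciita value is uncertain beside that neighbour.

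**Figure D2:**
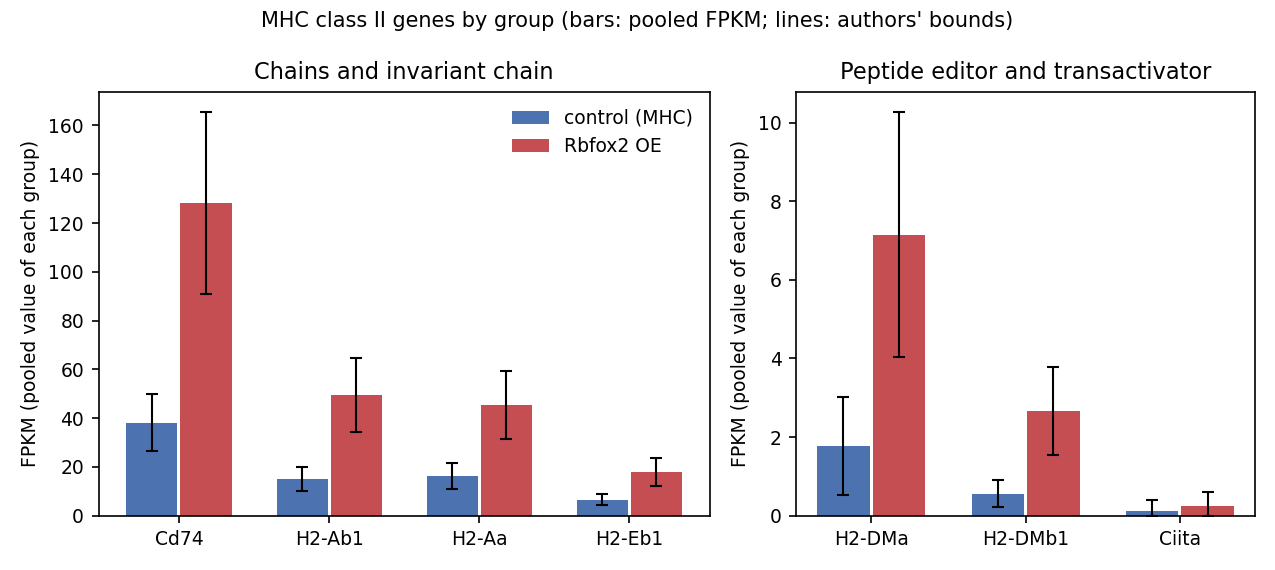
Pooled FPKM of the 7 MHC class II genes in control cells and in Rbfox2 OE (bars), with the authors' lower and upper bounds (lines), on separate linear axes for the abundant and the low genes. For all genes but Ciita the bounds of the groups do not overlap, and Cd74 is highest in both groups, at 38.1 and 128 FPKM.

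Of the 7 genes, 6 had bounds that did not overlap, all with Rbfox2 OE high; across all 48316 gene names in the table, 2.18% were separate in that direction. Averaged over both groups, 11697 genes reached 1 FPKM, and 6 of the 7 class II genes were among them. H2-DMb1 passed this filter only through its Rbfox2 OE value, and Ciita did not pass it. These 6 genes were at least 2-fold higher on the log2(FPKM + 1) scale, against 6.97% of the 11697 genes, and their bounds were separate, against 6.67%. None of the 7 was 2-fold lower. The median log2 ratio was 1.49 over the 6 genes and 1.42 over all 7, beside a median of -0.06 over the 11697 genes. Between 1.83% (Cd74) and 4.34% (H2-DMb1) of the 11697 genes had a log2 ratio as high as that of the class II gene. Rescaling the groups without mitochondrial genes and the 10 most abundant genes raised Rbfox2 OE by 0.16 on the log2 scale, moved the median of all genes to 0.07 and raised the members' median to 1.63. The split of all 2-fold genes then changed from 815 higher and 1172 lower to 1077 higher and 913 lower. After this rescaling 11812 genes averaged 1 FPKM or more, and 9.12% of them were at least 2-fold higher. The number of class II genes at least 2-fold higher was again 6. With a pseudocount of 5 FPKM that number was 3, namely Cd74, H2-Ab1 and H2-Aa, beside 2.60% of the 11697 genes under the same setting.

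**Figure D3:**
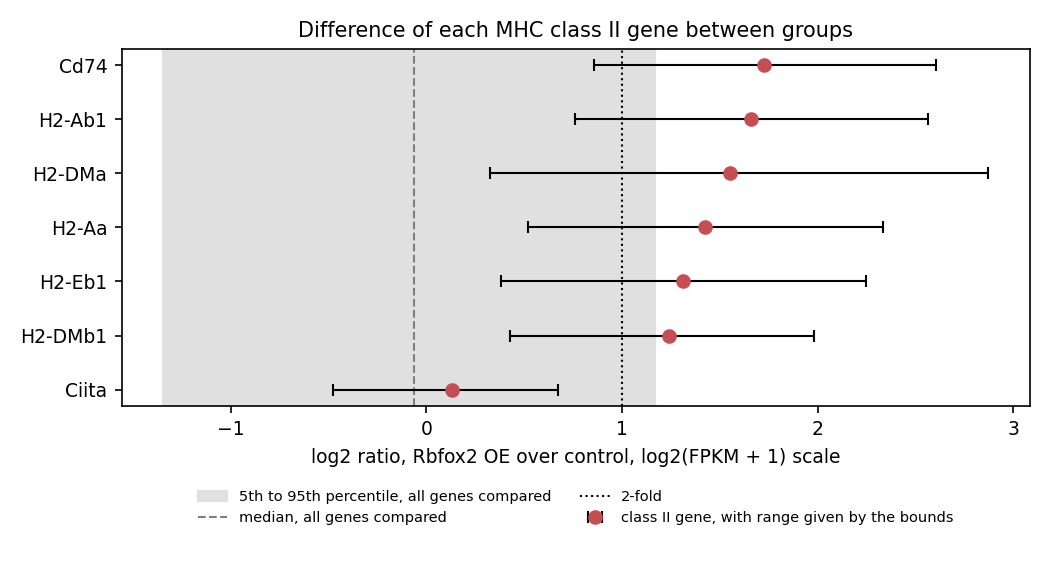
Log2 ratio of Rbfox2 OE over control for each MHC class II gene on the log2(FPKM + 1) scale (points), with the range from the nearest to the farthest pair of the authors' bounds (lines), beside the median and the 5th to 95th percentile of the 11697 genes compared. The log2 ratios of 6 genes lie between 1.24 and 1.73, above the 95th percentile of 1.17, and Ciita lies at 0.13.

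The proportions among the class II transcripts differed less between the groups than their levels did. FPKM is scaled to transcript length, so levels of different genes can be compared within a group. The 7 genes summed to 78.4 FPKM in control cells and 251 FPKM in Rbfox2 OE, a ratio of 3.20. Cd74 made up 48.6% of that sum in control cells and 51.1% in Rbfox2 OE. H2-Ab1 made up 19.1% and 19.7%, H2-Aa 20.8% and 18.1%, and H2-Eb1 8.44% and 7.13%. The level of Cd74 was 2.55 times that of H2-Ab1 in control cells and 2.60 times in Rbfox2 OE. The paired chains H2-Aa and H2-Ab1 stood at a ratio of 1.09 in control cells and 0.918 in Rbfox2 OE, and their bounds overlapped in both groups, so the order of these neighbours is not set. H2-DMa stood at 3.21 times H2-DMb1 in control cells, with overlapping bounds, and at 2.68 times in Rbfox2 OE, with separate bounds. The editor's genes together stood at 0.0615 of the summed chains H2-Aa, H2-Ab1 and H2-Eb1 in control cells and at 0.0872 in Rbfox2 OE. In both groups the order from high to low was Cd74, the H2-A chains, H2-Eb1, H2-DMa, H2-DMb1 and Ciita, and the bounds of H2-DMb1 and Ciita overlapped in control cells.

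Other genes of the class II pathway were compared from a list of 18 symbols, of which 15 were in the table, some symbols being alternative names. Bounds were separate and higher in Rbfox2 OE for 6 of the 15, beside 2.18% of all 48316 gene names. For none of the 15 were they separate and lower. Of the 8 that averaged 1 FPKM or more, 3 were at least 2-fold higher, beside 6.97% of the 11697 genes compared. The median log2 ratio of those 8 was 0.71. The proteases that degrade the invariant chain differed in extent. Ctss, cathepsin S, which does so in professional antigen-presenting cells, stood at 5.63 FPKM (bounds 3.60 to 7.66) in control cells and 37.6 FPKM (bounds 26.2 to 49.0) in Rbfox2 OE, a log2 ratio of 2.54. Ctsl, cathepsin L, stood at 106 FPKM (bounds 75.8 to 137) and 233 FPKM (bounds 168 to 299), a log2 ratio of 1.13. Lgmn, the endosomal asparaginyl endopeptidase, stood at 61.5 FPKM (bounds 43.4 to 79.5) and 43.6 FPKM (bounds 30.5 to 56.7), with overlapping bounds. March8, a ubiquitin ligase that can remove class II molecules from the cell surface, had overlapping bounds too, at 15.0 FPKM in control cells and 9.81 FPKM in Rbfox2 OE.

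The following genes of that list were singled out after their values were seen. Ifi30, the endosomal thiol reductase, stood at 3.76 FPKM (bounds 2.17 to 5.36) in control cells and 13.4 FPKM (bounds 8.89 to 18.0) in Rbfox2 OE. March1, the ligase that ubiquitinates class II in dendritic and B cells, stood at 0.228 FPKM (bounds 0.0789 to 0.377) and 1.11 FPKM (bounds 0.620 to 1.61). Both were separate in their bounds with Rbfox2 OE high. H2-Oa and H2-Ob, which form an inhibitor of H2-DM found mainly in B cells, stood at or under 0.245 FPKM in both groups with overlapping bounds. H2-Ea-ps, the alpha chain locus of the H2-E molecule and annotated as a polymorphic pseudogene, stood at 0.0804 and 0.173 FPKM, also with overlapping bounds. Its partner H2-Eb1 was therefore present at 17.9 FPKM in Rbfox2 OE beside 0.173 FPKM of the alpha chain gene.

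None of the class II promoter factors and coactivators compared passed either measure. Of 9 genes on the list, 0 were at least 2-fold apart and 0 had separate bounds, and the median log2 ratio was 0.07. Of the 11697 genes compared, 815 were at least 2-fold higher and 1172 at least 2-fold lower. Bounds were separate with Rbfox2 OE high for 6.67% of them and low for 9.33%. Counts of 0 among 9 genes lie near these shares. Nfyc, an NF-Y subunit, stood at 24.3 FPKM (bounds 15.9 to 32.7) in control cells and 26.1 FPKM (bounds 17.1 to 35.0) in Rbfox2 OE. Nfya, the NF-Y subunit that contacts CCAAT, stood at 8.87 and 11.4 FPKM, the coactivator Ep300 at 8.13 and 8.61 FPKM, and Rfxap, an RFX subunit, at 6.16 and 9.23 FPKM. The bounds of each overlapped between the groups.

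Of 10 genes of interferon gamma signalling, 1 had separate bounds, with Rbfox2 OE high. That direction held for 6.67% of the 11697 genes compared and 2.18% of all 48316 gene names. Ifngr1, the ligand-binding receptor chain, stood at 18.0 FPKM (bounds 12.2 to 23.8) in control cells and 38.0 FPKM (bounds 24.8 to 51.2) in Rbfox2 OE, a log2 ratio of 1.04. Ifngr2, the second receptor chain, stood at 66.3 and 50.4 FPKM, the receptor kinase gene Jak1 at 36.4 and 27.6 FPKM, and the transcription factor gene Irf1 at 23.2 and 23.5 FPKM. Each of these had overlapping bounds. Ifng, Cxcl9 and Cxcl10 were singled out after their values were seen. Ifng, the ligand itself, stood at 0.0375 and 0.0276 FPKM. The chemokine genes Cxcl9 and Cxcl10 were over 2-fold higher in value, with log2 ratios of 1.46 and 1.25, but their bounds were wide and overlapped. Cxcl9 stood at 5.42 FPKM (bounds 1.08 to 9.76) and 16.7 FPKM (bounds 0.389 to 33.0).

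Class I presentation was compared through 4 genes, with B2m at a log2 ratio of 0.74, H2-K1 at 0.92 and Nlrc5 at 0.98, and H2-D1 at 107 and 215 FPKM. Bounds were separate for H2-K1, a classical heavy chain, at 70.6 FPKM (bounds 49.6 to 91.6) and 135 FPKM (bounds 94.3 to 175). They overlapped for H2-D1, B2m and Nlrc5, the class I transactivator related to CIITA, which stood at 1.10 and 3.15 FPKM. The difference between the class I and class II ratios was not tested.

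Markers of macrophages were higher in value in Rbfox2 OE, like the class II genes. Bounds were separate with Rbfox2 OE high for 6.67% of the 11697 genes compared and for 2.18% of all 48316 gene names. Of 12 macrophage markers, 12 were higher in value in Rbfox2 OE, 10 with separate bounds, and none was at 0 in either group. Their summed level was 86.9 FPKM in control cells and 312 FPKM in Rbfox2 OE, with single markers between 0.141 and 41.3 FPKM and between 1.14 and 170 FPKM. Lyz2, lysozyme, stood at 41.3 FPKM (bounds 28.8 to 53.9) and 170 FPKM (bounds 120 to 219). C1qa, a complement chain made by resident macrophages, stood at 28.3 and 71.7 FPKM, Mrc1, the mannose receptor, at 3.65 and 12.2 FPKM, and Cd68, a lysosomal membrane protein, at 3.77 and 20.9 FPKM. The bounds of each of these were separate. The median log2 ratio over the 12 macrophage markers was 1.41, beside 1.42 over the 7 class II genes.

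Class II transcripts were also set against the macrophage markers, and the direction of that relative level was not set by these values. The sum of H2-Aa, H2-Ab1, H2-Eb1 and Cd74 was 75.9 FPKM in control cells and 241 FPKM in Rbfox2 OE, a ratio of 3.17, while the sum over macrophage markers had a ratio of 3.59. The class II sum was therefore 0.874 of the macrophage sum in control cells and 0.772 in Rbfox2 OE. The quotient of these, Rbfox2 OE over control, was 0.883. The summed bounds of the class II genes alone gave 0.468 to 1.69. That range held the macrophage sums at their values, so bounds on both sums would give a wider one. Without Lyz2, the most abundant marker, the values were 1.67 and 1.69, so that Rbfox2 OE was the higher by a quotient of 1.02. With all 34 markers of macrophages, dendritic cells, B cells and T cells as the denominator, they were 0.787 and 0.731. The part of these cells in the class II difference was not tested.

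The markers of dendritic cells, B cells and T cells on these lists stood at or under 3.86 FPKM in both groups. Of 9 dendritic cell markers, 4 had separate bounds with Rbfox2 OE high, beside 2.18% of all 48316 gene names. Only 2 of the 9 averaged 1 FPKM or more, and 1 of these had separate bounds, beside 6.67% of the 11697 genes compared. The levels of all 9 markers summed to 5.35 FPKM in control cells and 10.8 FPKM in Rbfox2 OE. Clec10a, a lectin of dendritic cells and macrophages, stood at 1.05 and 3.61 FPKM, Cd209a, a dendritic cell lectin, at 0.188 and 1.49 FPKM, and Itgax, the CD11c integrin chain, at 0.0657 and 1.23 FPKM. These 3 were among the 4 with separate bounds. The transcription factor gene Zbtb46, also expressed in endothelium, stood at 3.57 and 3.18 FPKM. Of 7 B cell markers, 0 had separate bounds, and their sum was 3.70 FPKM in control cells and 4.99 FPKM in Rbfox2 OE, most of it Ighm at 2.95 and 3.86 FPKM. Cd79a, a B cell receptor subunit, stood at 0.236 and 0.387 FPKM. Of 6 T cell markers, 0 had separate bounds, and their sum was 0.557 and 1.55 FPKM. No marker of these 3 lists was listed at 0 in either group.

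Markers of stromal cells were also higher in value, and those of cardiomyocytes mostly lower. Of 6 fibroblast markers, 4 had separate bounds with Rbfox2 OE high, beside 6.67% of the 11697 genes compared. The fibroblast list summed to 187 FPKM in control cells and 442 FPKM in Rbfox2 OE. Dcn, the proteoglycan decorin, stood at 147 and 301 FPKM, and Col3a1, a fibrillar collagen, at 16.2 and 74.2 FPKM. Of 7 endothelial markers, 2 had separate bounds with Rbfox2 OE high, beside the same 6.67%, and the sums were 188 and 337 FPKM. These were Pecam1, the adhesion molecule CD31, at 43.7 and 88.0 FPKM, and Emcn, a sialomucin of capillaries and veins, at 27.1 and 68.3 FPKM. Cdh5 stood at 47.5 and 88.0 FPKM and Flt1 at 21.8 and 33.2 FPKM, both with overlapping bounds. The median log2 ratio of the 7 endothelial markers was 0.58. Of 10 cardiomyocyte markers, 4 had separate bounds with Rbfox2 OE low, beside 9.33% of the 11697 genes compared. The 4 most abundant with an estimate were Myl2, Tnnt2, Tnni3 and Myl3, which encode sarcomere proteins, and of these only Tnni3 had separate bounds. That list summed to 52759.5 FPKM in control cells and 34714 FPKM in Rbfox2 OE, without Myh6. Tnni3, cardiac troponin I, stood at 7811 FPKM (bounds 5623 to 9998) and 3866 FPKM (bounds 2774 to 4957). Myl2 stood at 24688 and 18007 FPKM, a ratio of 0.729, Tnnt2 at a ratio of 0.652 and Myl3 at 0.802, all with overlapping bounds. The other markers with separate bounds were Ryr2, Pln and Actn2, singled out after their values were seen. Ryr2 stood at 122 and 22.4 FPKM, a ratio of 0.184, and Pln at 2613 and 488 FPKM, a ratio of 0.187. Actn2 stood at 830 and 455 FPKM, a ratio of 0.548. Ttn, the giant protein titin, singled out in the same way, was the 1 marker higher in value, at 166 and 252 FPKM with overlapping bounds. The part of stromal cells and of the cardiomyocyte share in the class II difference was not tested.

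**Figure D4:**
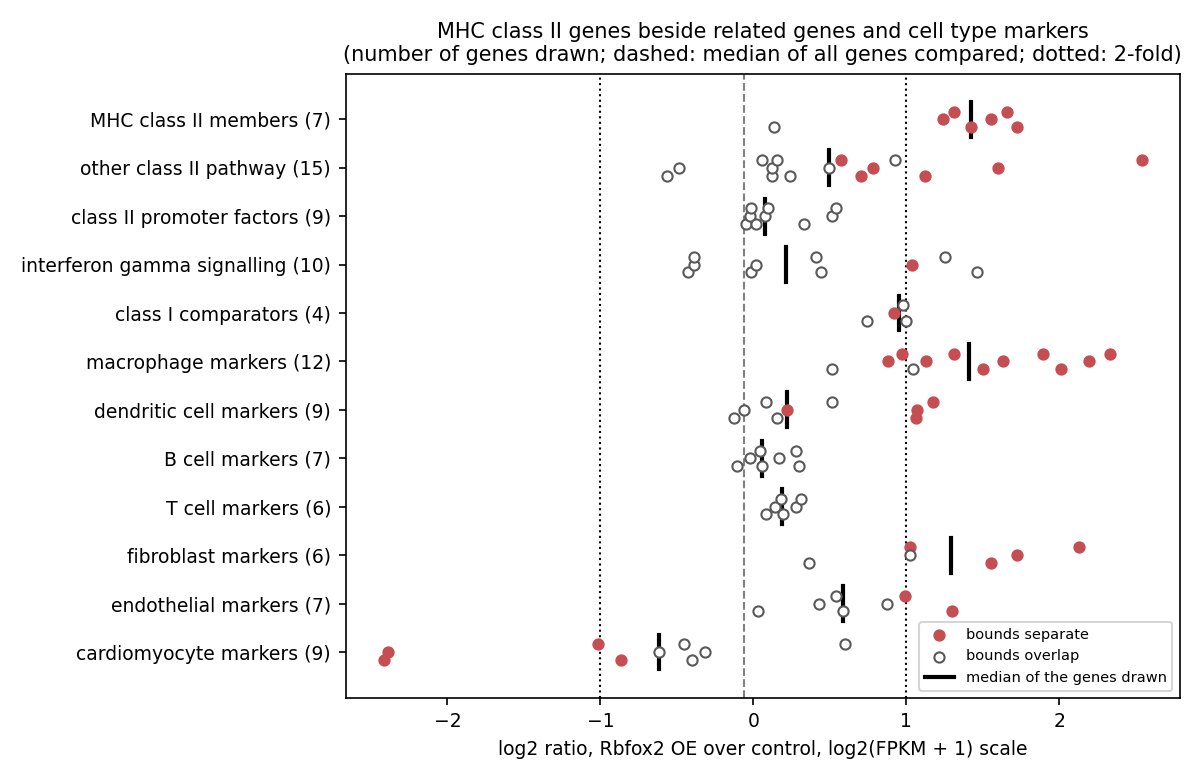
Log2 ratio of Rbfox2 OE over control on the log2(FPKM + 1) scale for every gene of each list with status OK; filled points have separate bounds, open points overlapping bounds, and black bars are medians of the genes drawn, low genes included. The 7 class II genes have a median of 1.42 and the 12 macrophage markers 1.41, while the class II promoter factors lie around 0.07.

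The genes whose difference was most like that of the class II genes were sought among protein-coding genes of similar level, with a mean FPKM within 2-fold of 21.5, the median of the 6 members. Likeness was the distance of the log2 ratio from 1.49, over only 2 group values, so many unrelated genes can qualify. The 5 nearest were Ccl21a (log2 ratio 1.48), Osmr (1.47), Xaf1 (1.47), Ecscr (1.51) and Sh3bgrl3 (1.51). Ccl21a encodes a chemokine of lymphatic endothelium and has near-identical gene copies, Osmr the oncostatin M receptor, and Ecscr an endothelial surface protein. Bounds were separate for all of these but Xaf1, an interferon-inducible gene. Of the 11697 genes compared, 6.67% had separate bounds with Rbfox2 OE high. The 5 genes were picked by their ratio and level, so separate bounds follow largely from that choice and add no support.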

How the data were processed

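Cardiomyocyte RNA of 4 libraries, 2 per group, was analysed from 1 gene-level table. The deposited values are FPKM from Cuffdiff, made by the authors per the file headers, as 1 pooled value for each group. The other deposited columns hold the bounds of that value, also in FPKM. The submitters' processing notes name Cuffdiff 2.2.1, STAR 2.4.2a, Picard 1.119, bcl2fastq 2.17.1.14, Trimmomatic, HTSeq and DESeq2, with builds GRCm38 and mm10. The annotation and normalization mode are not given in the sources used here. The reference genome is of C57BL/6J, while the mice are C57BL x FVB and these genes are polymorphic. The effect on the FPKM was not assessed.

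Rows sharing a name (110 names) were summed, bounds included. The log2 ratio of Rbfox2 OE over control used a pseudocount of 1 FPKM, which understates differences of low genes. Genes averaging 1 FPKM or more were compared, with a 2-fold threshold (log2 of 1) or bounds that do not overlap. The design called for limma if values per library existed; the table has none, so no p-value was computed. Identifiers of 48053 rows (99.2%) were found in GENCODE M21, used for coordinates. Python 3.11.15 with pandas 2.3.3 was used, and the calculations were tested on simulated data. Unused columns of per-library values numbered 0.

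The genes and lists were chosen with earlier results of these data known. Named were the 7 members, of each other list the 4 genes with the highest mean FPKM and those without an estimate, the 5 genes of most similar ratio, and Rbfox2. Some names that the rule chose are given only within their list's counts. Genes outside this rule are stated as chosen after their values were seen. Other members of a list are covered by its counts, and Dexi and H2-DMb2 are given because a member's value rests on them. Alternatives covered the pseudocount, the filter, the threshold, scaling, the mean and the denominator markers.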

Additional observations from a re-analysis of the deposited data

How the results depend on the processing

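No paired analysis was possible because each group has a single pooled value, and no value carries a replicate number. For the same reason the fits that leave out a library were not run, and how far the libraries of a group differ is unknown. Depth in reads is unknown, which limits Ciita and H2-DMb1 most. The alternatives for single genes could not change a sign, because a pseudocount cannot reverse a ratio and both scalings raised the ratios. Of 35 alternative values for single class II genes, 32 stayed within the range that the authors' bounds gave with a pseudocount of 1 FPKM. That range was not recomputed for each setting, so a value outside it can still lie within the bounds on its own scale. The exceptions were H2-DMb1, at 2.08 with a pseudocount of 0.1 and 2.27 with no pseudocount, and Ciita, at 0.89 with none. The last setting was chosen after seeing the data. The number of class II genes at least 2-fold higher, 6, was 3 with a pseudocount of 5, which shrinks ratios of low genes, and 0 at a 4-fold threshold. Of all 11697 genes compared, 2.60% were higher with that pseudocount and 1.16% at 4-fold, so the count of 0 lies near its share. With a minimum mean of 5 FPKM, 4 of 4 class II genes were at least 2-fold higher, beside 6.54% of 7522 genes. The median log2 ratio of 1.49 lay between 1.11 and 1.73 under 7 other settings, and was 1.74 with no pseudocount. Rbfox2 lay between 3.92 and 4.38 on the same scale. The class II sum relative to the 12 macrophage markers, taken as Rbfox2 OE over control, was 0.883. It was 0.929 with all 34 leukocyte markers as the denominator, 1.02 without Lyz2 and 0.828 without Cd74.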

Other observations

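The class II region of chromosome 17 also holds genes with other functions, and these were examined after the class II values were seen. Between H2-Oa and H2-Ea-ps the table has 19 rows, of which 5 outside the class II lists had a mean of at least 1 FPKM. These 5 were Psmb8 and Psmb9, catalytic subunits of the immunoproteasome, Tap1 and Tap2, which form the peptide transporter of class I presentation, and Brd2, a chromatin reader expressed in most cells. At least 2-fold higher in value were 2 of them, Psmb8 with a log2 ratio of 1.07 and Tap1 with 1.02, but 0 of the 5 had separate bounds. Of the 11697 genes compared, 6.97% were at least 2-fold higher and 6.67% had separate bounds with Rbfox2 OE high. Psmb8 stood at 14.1 FPKM (bounds 4.73 to 23.4) in control cells and 30.6 FPKM (bounds 12.6 to 48.6) in Rbfox2 OE. Tap1 stood at 4.71 FPKM (bounds 2.53 to 6.88) and 10.6 FPKM (bounds 5.37 to 15.8). Tap2, at 13.1 and 18.4 FPKM, and Psmb9, at 4.89 and 8.01 FPKM, had log2 ratios of 0.46 and 0.61. Brd2, nearest to H2-DMa, stood at 57.8 FPKM (bounds 36.6 to 79.1) and 82.9 FPKM (bounds 54.3 to 112). The table assigns each of Psmb8, Psmb9, Tap1 and Tap2 to a locus shared with an overlapping gene.

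Ccr2, a receptor of recruited monocytes, was singled out after its value was seen. It stood at 0.141 FPKM (bounds 0.0461 to 0.236) in control cells and 3.23 FPKM (bounds 2.09 to 4.38) in Rbfox2 OE, with separate bounds. Its log2 ratio of 1.89 is larger than that of any of the 7 class II genes. Mertk, a receptor of resident macrophages that was singled out in the same way, stood at 1.15 FPKM (bounds 0.703 to 1.59) and 2.95 FPKM (bounds 1.96 to 3.93).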
